A study of Mus musculus with 6 samples.

Results

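Nuclei from mouse brain fixed in formalin and embedded in paraffin (FFPE) were compared in wells of 10 and wells of 100, after xylene had removed the paraffin. The wells were taken from the bulk SCRB-seq table by the treatment and nuclei number in its annotation. They are 32 of the 64 wells: 8 wells of 10 nuclei and 8 of 100 after heated xylene, and 8 of each after xylene at room temperature. The other 32 wells hold nuclei freed with heated mineral oil (16 wells) and nuclei of frozen tissue (16 wells). Every group is C57BL/6J tissue that the labels call cortex, from animals of 8 to 12 weeks cut as 50 µm scrolls, and the label of the frozen wells stands in the annotation table alone. No sex or animal is given per well, and all wells belong to 1 of the 6 samples of the series. The wells are therefore technical wells, and every p-value below measures the spread between wells and not between animals.

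Formalin crosslinks RNA to protein, and fixation and storage in paraffin break it into short pieces, so that only part of the RNA in a fixed nucleus can be turned into cDNA. SCRB-seq primes cDNA from poly(A) runs with an oligo-dT primer that carries a well barcode, after which the barcoded cDNA of many wells is pooled and amplified as 1 library. The RNA of a nucleus is rich in unspliced transcripts and in retained noncoding RNA such as Malat1, and poor in the mature mRNA of the cytoplasm.

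The 8 wells of a method and a nuclei number formed 1 pool with its own library index, and the same 8 well barcodes recur in each of the 8 pools of the table. Pool and nuclei number therefore cannot be told apart within a method. Wells of 1 pool resembled each other more than wells of different pools. After thinning each well to 20000 counts, the median Spearman correlation over 4354 genes was 0.463 in the heated pool of 10 nuclei, 0.417 in the heated pool of 100, 0.416 in the room-temperature pool of 10 and 0.418 in the room-temperature pool of 100 (28 pairs each). Between pools it ran from 0.240 to 0.337 (64 pairs each). In the heated pool of 100 nuclei 333 genes had a count in all 8 wells and none in any of the 8 wells of the heated pool of 10, and 69 genes did so the other way round. At room temperature these numbers were 133 and 0. Such genes also separated pools of the same nuclei number. Between the pools of 10 they numbered 182 (heated only) and 124 (room temperature only). Between the pools of 100 they numbered 28 and 42, all out of 19006 mouse genes.

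Wells of the same barcode also resembled each other across the room-temperature pools. Over 9137 genes the median correlation was 0.500 between same-barcode wells (8 pairs) and 0.418 between wells of different barcodes (56 pairs), and 14 of 16 wells had their best partner in the well of their own barcode. In the heated pools these values were 0.357 and 0.348, and 4 of 16 wells. Genes with at least 20 counts in 1 well of the room-temperature pool of 10 and at most 2 in its other 7 wells numbered 48. All 48 had a count in the same-barcode well of the pool of 100, with 454 counts there in all against a mean of 170 in each other well. In the heated pools there were 55 such genes, of which 26 had a count in the same-barcode well, with 195 counts there against a mean of 167. Why same-barcode wells resembled each other was not tested. Values of the heated wells alone are given where a call did not hold in them, and for several other results.

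**Figure D1:**
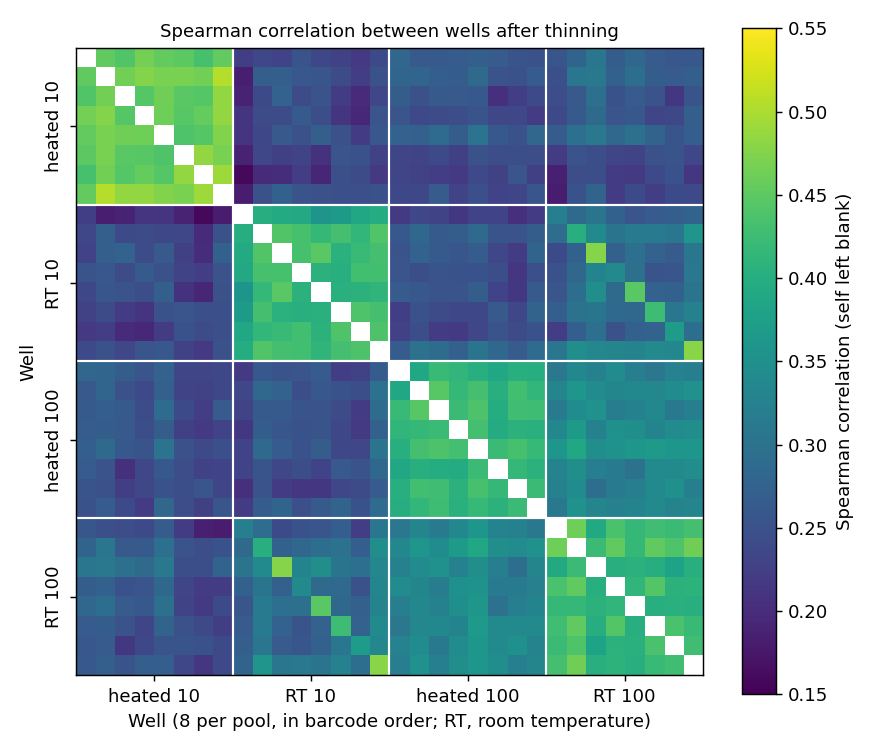
Spearman correlation between the 32 xylene wells after thinning to 20000 counts, ordered by pool and, within a pool, by well. The 4 blocks on the diagonal are wells of 1 pool, with medians of 0.416 to 0.463. The short diagonal in the blocks of the room-temperature (RT) pools marks wells with the same barcode.

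With 10 times as many nuclei, wells held more mouse counts, but by far less than the ratio of the nuclei. Mouse counts per well were 28953, 53392 and 97128 (lowest, median, highest) in heated wells of 10 nuclei and 51955, 81461 and 147257 in heated wells of 100. At room temperature they were 23015, 55786 and 124694 with 10 nuclei and 55049, 77292 and 128394 with 100. All groups overlap. The mean over both methods rose from 57938 ± 27354 to 85380 ± 27747 (SD, n = 16 wells each; exact 2-sided permutation test within method, p = 0.00961, adjusted over 8 measures 0.0110). Within the heated wells the difference was 30981 counts (exact permutation p = 0.0274), and within the room-temperature wells it was 23903, which did not pass (exact permutation p = 0.136). Fewer nuclei in a well and less RNA recovered from each nucleus cannot be told apart from counts, nor can the share of reads each pool was given.

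Wells of 100 nuclei held more genes. A mouse gene with at least 1 count was called detected. Heated wells of 10 nuclei held 5261, 6366 and 7956 genes (lowest, median, highest), and heated wells of 100 held 7589, 8867 and 10557. Room-temperature wells held 4586, 5982 and 8963 genes with 10 nuclei and 8105, 9662 and 11830 with 100. Each of the 16 wells of 100 nuclei lay above the mean of the wells of 10, although the ranges overlap. The mean rose from 6362 ± 1210 to 9335 ± 1234 genes (SD, n = 16 each; exact permutation p = 3.86e-07, adjusted 7.73e-07), by 2461 genes in heated wells and by 3485 at room temperature.

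The gain in genes was also there at equal depth, where the groups separated in full. At 20000 counts per well, heated wells of 10 nuclei held 4146 to 4810 genes and heated wells of 100 held 5204 to 5654. At room temperature the ranges were 3659 to 4928 and 5531 to 6570. The mean rose from 4327 ± 362 to 5713 ± 433 genes (exact permutation p = 1.21e-08, adjusted 4.83e-08, n = 16 each). The gain was 945 genes in heated wells and 1827 at room temperature, and this difference of -882 genes between the methods passed its own test (exact permutation of the method labels within nuclei number, p = 0.000980, adjusted over 8 measures 0.00784). Frozen wells gained 581 genes at that depth, 805 fewer than the xylene wells (exact permutation p = 0.00592, adjusted 0.0237, with 2 shallow frozen wells left out). Permuting the method or frozen labels assumes that the groups do not differ at either nuclei number. Such p-values, here and below, are therefore not specific to a difference between the gains.

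**Figure D2:**
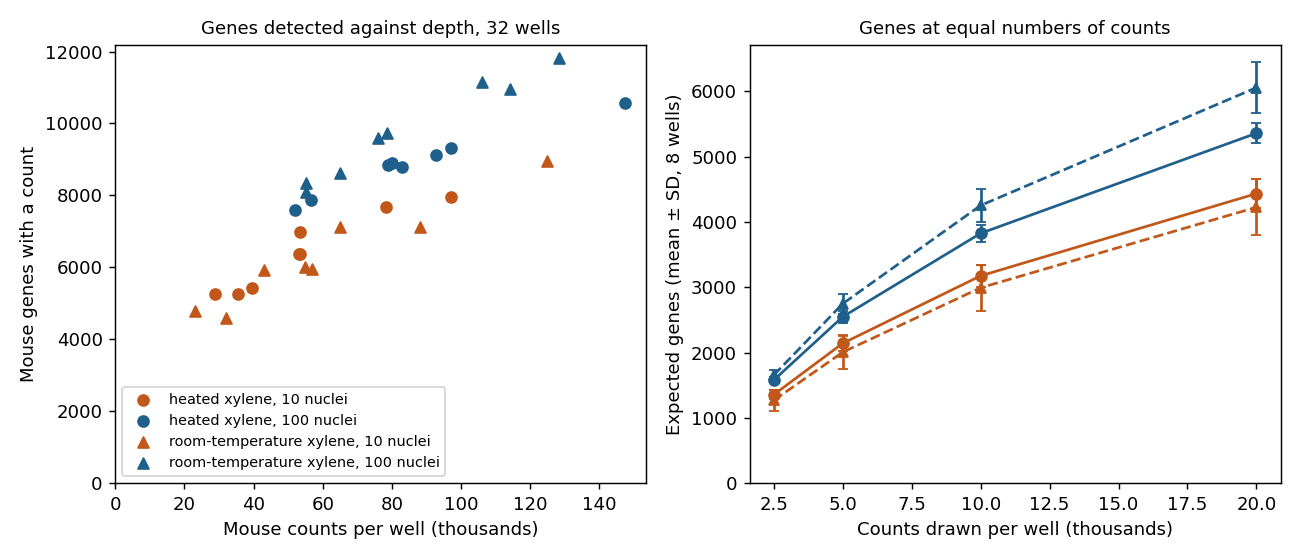
Left, mouse genes with a count against mouse counts in each of the 32 wells. Right, the number of genes expected when 2500, 5000, 10000 or 20000 counts are drawn from each well (mean ± SD over 8 wells). At 20000 counts the means are 4435 and 5359 genes in heated wells of 10 and 100 nuclei and 4225 and 6057 at room temperature.

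Summing 8 wells of 10 nuclei gives 80 nuclei, close to the 100 of a single well. At 20000 counts the heated sum held 5274 genes, inside the range of the single heated wells of 100 (5146 to 5603 genes expected at that depth). The room-temperature sum held 5121 genes, below each of the 8 single wells of 100 (5542 to 6608). At full depth the 8 heated wells of 10 nuclei together held 12105 genes, of which 2417 were in all 8 wells and 2823 in 1 well only. The 8 heated wells of 100 together held 14470, of which 4152 were in all 8 wells. At room temperature the sums held 12171 and 15782 genes, with 2039 and 3983 in all 8 wells. Wells of 100 nuclei also varied less by the common dispersion of edgeR, the squared coefficient of variation beyond counting error. It was 0.567 and 0.366 in heated wells of 10 and 100 nuclei, and 0.669 and 0.186 at room temperature. The median correlation within a heated pool was not higher with 100 nuclei (0.417) than with 10 (0.463).

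The composition of the counts moved with the nuclei number. Counts on human genes, which mouse nuclei should not give, took 12.7% to 20.7% of all counts in heated wells of 10 nuclei (median 14.3%) and 6.97% to 11.2% in heated wells of 100 (median 9.08%), with no overlap. At room temperature they took 11.3% to 22.6% (median 15.1%) and 6.17% to 12.0% (median 8.24%). The mean over both methods was 15.5% ± 3.33 and 8.77% ± 1.92, lower in 16 of 16 wells of 100 than the mean of 10 (exact permutation p = 2.41e-08, adjusted 6.44e-08, n = 16 each). Frozen wells held 2.78% ± 0.538 and 1.91% ± 0.243 (n = 8 each). The source of the human counts was not tested.

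A few genes took more of the counts in small wells. The 10 most abundant genes of a well held 10.8% to 20.3% of its mouse counts in heated wells of 10 nuclei and 6.29% to 9.95% in heated wells of 100. At room temperature the ranges were 6.90% to 28.2% and 6.04% to 12.0%. The mean fell from 15.9% ± 6.09 to 8.29% ± 1.81 (exact permutation p = 3.68e-06, adjusted 5.89e-06, n = 16 each). In frozen wells the same share was 14.2% ± 1.55 with 10 nuclei and 15.3% ± 1.02 with 100 (n = 8 each), and the difference of -8.69 percentage points between xylene and frozen wells passed its test (exact permutation p = 0.000793, adjusted 0.00634).

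Malat1, the long noncoding RNA held in nuclear speckles, took 0.491% to 0.981% of mouse counts in heated wells of 10 nuclei and 1.35% to 1.90% in heated wells of 100. At room temperature it took 0.731% to 1.58% and 1.82% to 2.81%. Neither method's ranges overlap. The mean share rose from 0.981% ± 0.316 to 1.92% ± 0.460 (exact permutation p = 1.21e-08, adjusted 4.83e-08, n = 16 each). It was 8.37% ± 0.994 and 10.0% ± 0.830 in frozen wells (n = 8 each). The 11 mitochondrially encoded genes of the table rose from 0.661% ± 0.244 to 0.900% ± 0.160 (exact permutation p = 0.00289, adjusted 0.00385, n = 16 each). In heated wells alone that rise was 0.131 percentage points and did not pass (exact permutation p = 0.116). The 79 ribosomal protein genes held 0.622% ± 0.256 and 0.719% ± 0.167 (exact permutation p = 0.207). Here the methods differed: the change was -0.0825 percentage points in heated wells and 0.278 at room temperature (exact permutation of the difference p = 0.0118, adjusted 0.0471). The well of 10 nuclei numbered 1 at room temperature stands apart with 1.36%.

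Single genes were tested with edgeR, with method as a block and the scaling factors of TMM (trimmed mean of M-values). Of 1755 genes that passed the filter on low counts, 359 (20.5%) differed between 10 and 100 nuclei at an adjusted p under 0.05. Of these, 166 (9.46%) were higher with 100 nuclei and 193 (11.0%) were lower. This split differs with the scaling, the filter and the fit: it was 266 and 233 by DESeq2 and 270 and 227 with a term for the well barcode. With no filter on low counts, 2929 of 17764 genes were higher and 585 lower. Without a scaling factor 344 genes were higher and 98 lower, the median of all genes moved up by 0.30 on the log2 scale, and each of the 359 genes kept its direction. All 166 kept the call higher and 98 of the 193 kept the call lower. The mean TMM factor was 0.959 and 1.07 in heated wells of 10 and 100 nuclei and 0.852 and 1.17 at room temperature. Log2 fold changes below are relative to the TMM scale, on which the median of all genes was 0.07, while CPM (counts per 1e+06 mouse counts) are given without the factor.

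The calls rest on wells as the unit. When the 8 wells of each pool were summed, which leaves 2 sums against 2, edgeR called 0 of the 1755 genes. At an unadjusted p under 0.05 that fit had 173 genes, and its lowest adjusted p was 0.0770, shared by the 6 genes Sft2d2, Nebl, Tspan3, Ctsc, Gm21317 and Wdr72. All 359 genes had the same direction there.

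Each method was then fitted alone. In heated wells alone 209 genes (11.9%) were called higher and 137 (7.81%) lower, and in room-temperature wells alone 119 (6.78%) and 121 (6.89%). Called lower in both were 45 genes, called higher in both 15, and 7 genes were called in opposite directions. Of the 193 genes called lower over both methods 192 had that sign in each method, and of the 166 called higher 158 did; the fit over both methods favours genes with the same sign.

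The genes that fell with more nuclei held a large share of the counts of small wells. Together the 193 genes took 26.6% of the counts in the heated pool of 10 nuclei and 12.95% in the heated pool of 100, and 29.3% and 10.3% at room temperature. Of them 154 had a count in all 32 wells, beside 37 of the 166 genes that rose and 661 of the 1396 not called. A gene called higher is low in wells of 10, so this contrast is partly set by the choice of the genes. The 166 genes took 3.13% and 7.43% of the counts in the heated pools and 3.67% and 7.77% at room temperature. The fall in share of the 193 genes and the rise of the 166 follow from their choice in these wells. Of the 428 annotated genes with the highest mean CPM 27 were called higher and 94 lower, and of the 428 with the lowest 70 and 18. Over all tested genes 9.46% were higher and 11.0% lower. A low gene could pass the filter through the pools where it is high, so the filter can shape this split, which was not tested.

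Ctsc, which encodes the lysosomal protease cathepsin C (chromosome 7, 88278085 to 88310888), was the gene with the most counts in wells of 10 nuclei. It took 4.36% of the summed counts of 10 nuclei and 1.11% of those of 100. Its level was 22221, 32836 and 56925 CPM (lowest, median, highest) in heated wells of 10 and 5366, 13923 and 24593 CPM in heated wells of 100. At room temperature it was 4562, 46076 and 84438 CPM and then 1036, 7391 and 24492 CPM. The wells of 10 are the higher ones by median in both methods, and the ranges overlap. Ctsc fell by 1.99 on the log2 scale (SE 0.357, edgeR adjusted p = 0.000141), a level 3.97-fold higher with 10 nuclei, with each of the 16 wells of 100 under the mean of 10. In heated wells alone it fell by 1.39 (adjusted p = 0.00283). In the frozen pools it took 0.0360% and 0.00765% of the counts.

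Tspan3, a membrane protein of the tetraspanin family (chromosome 9, 56131725 to 56165477), took 3.70% of the summed counts of 10 nuclei and 0.811% of those of 100. Heated wells of 10 held 20585, 30585 and 62042 CPM (lowest, median, highest) and heated wells of 100 held 4093, 11420 and 19568, with no overlap. Room-temperature wells held 3910, 38733 and 81382 CPM and then 569, 5749 and 14815. Tspan3 fell by 2.31 (SE 0.370, edgeR adjusted p = 2.26e-05) and, in heated wells alone, by 1.58 (adjusted p = 0.00131).

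Nebl, which encodes the actin-binding protein nebulette (chromosome 2, 17343909 to 17731464), also separated the heated groups. Its level was 4041, 5408 and 14467 CPM (lowest, median, highest) in heated wells of 10 nuclei and 836, 2243 and 3986 in heated wells of 100. At room temperature it was 826, 8195 and 15045 CPM and then 436, 1552 and 3400. Nebl fell by 2.13 (SE 0.328, edgeR adjusted p = 1.50e-05). Sft2d2, a gene for a vesicle transport protein (chromosome 1, 165174337 to 165194438), fell by 1.90 (SE 0.387, adjusted p = 0.000670). Its median was 9158 and 2941 CPM in heated wells and 8753 and 1864 CPM at room temperature, with overlap in both. In the room-temperature pool of 10 nuclei well 1 was the lowest of the 8 for Ctsc (4562 CPM), Tspan3 (3910 CPM), Nebl (826 CPM) and Sft2d2 (1347 CPM), and it is the well with 1.36% on ribosomal protein genes.

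The 12 largest falls by fold were those of Gm21317, Gm21650, Ubr4, Tspan3, Clec12a, Borcs7, Slc4a3, Casr, Nebl, Gm10745, Gm21294 and Eif3l. Gm21317, Gm21650 and Gm21294 are predicted genes on chromosome Y, at 82225227 to 82251419, 77692808 to 77719038 and 89052806 to 89079015. No label says how reads shared by near-identical copies were counted, so their values are uncertain. Gm21317 had a median of 1635 CPM in heated wells of 10 nuclei and 403 CPM in heated wells of 100, and 1164 and 153 CPM at room temperature. Casr, the calcium-sensing receptor, fell by 2.15 (SE 0.399, edgeR adjusted p = 0.000219), from a median of 262 to 154 CPM in heated wells and from 456 to 82.3 CPM at room temperature. Clec12a and Gm21294 were not called in heated wells alone (adjusted p = 0.0631 and 0.0878), nor Borcs7, Slc4a3 and Eif3l at room temperature (adjusted p = 0.634, 0.0626 and 0.275). Borcs7, a subunit of the complex that moves lysosomes, was uneven: its counts were 133 and 11 in the heated pools of 10 and 100 and 80 and 76 at room temperature.

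**Figure D3:**
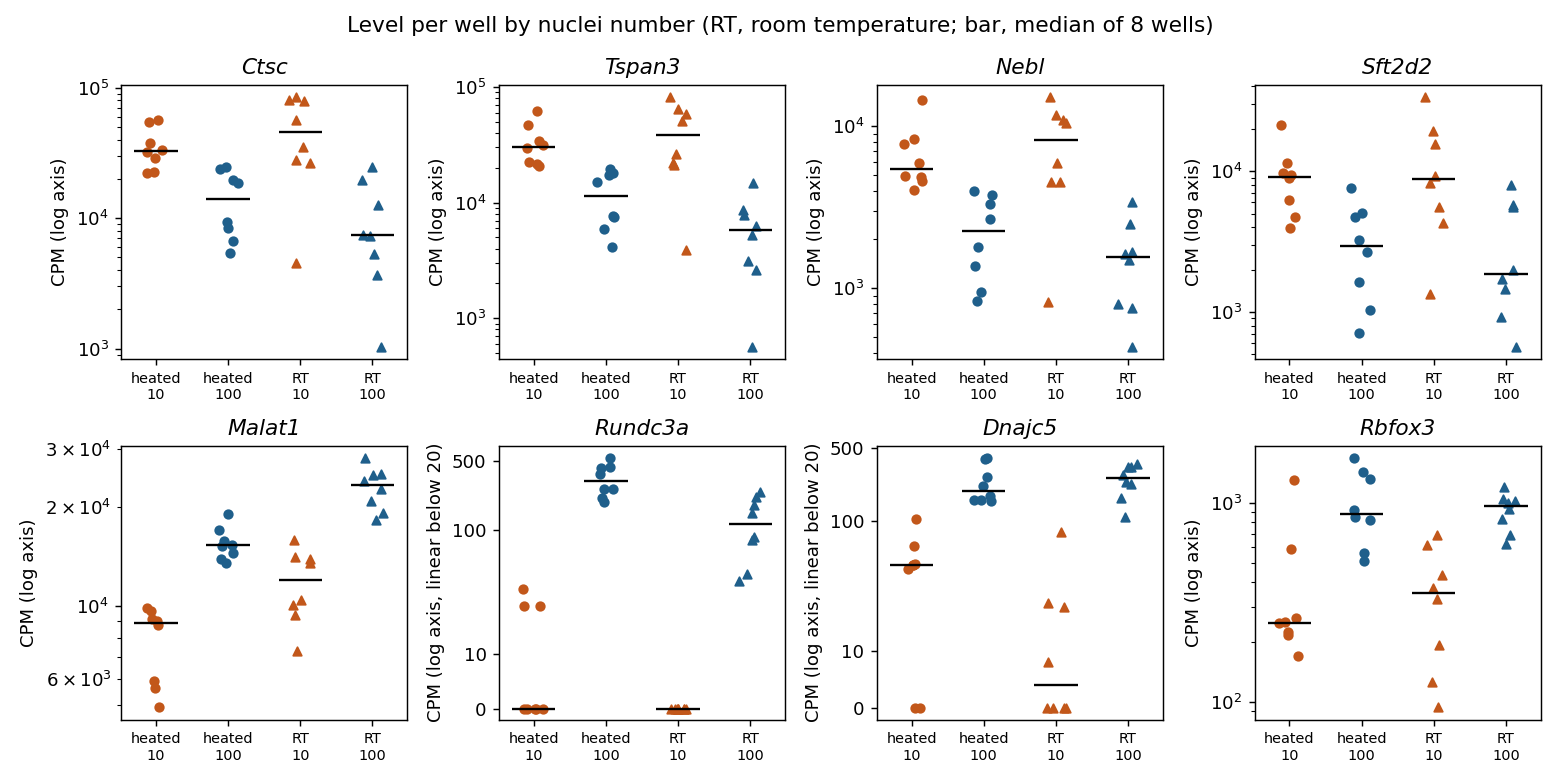
CPM of 8 genes in each of the 32 wells, by method and nuclei number, on log axes (those of Rundc3a and Dnajc5 are linear below 20), with the median of 8 wells as a bar. Ctsc, Tspan3, Nebl and Sft2d2 are lower and Malat1, Rundc3a, Dnajc5 and Rbfox3 higher with 100 nuclei. The medians of Ctsc are 32836 and 13923 CPM in heated wells and 46076 and 7391 CPM at room temperature.

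Of the 166 genes that rose 9 had 0 counts in a pool of 10 nuclei. Rundc3a, a RUN domain gene expressed in neurons (chromosome 11, 102393403 to 102402555), had 3 counts in the 16 wells of 10 nuclei and 327 in the 16 wells of 100. In heated wells of 10 its highest value was 25.2 CPM and its median 0 CPM, against 192, 317 and 535 CPM (lowest, median, highest) in heated wells of 100. At room temperature no well of 10 had a count, and wells of 100 held 30.8, 116 and 245 CPM. Its summed share was 74.0-fold higher with 100 nuclei (exact 95% interval 25.1 to 360.5, which covers counting error only), and the fitted fold on the TMM scale was 43.8 (edgeR log2 fold change 5.45, SE 0.509, adjusted p = 5.18e-10), which depends on the prior count. Frozen wells held 118 CPM ± 127 with 10 nuclei and 122 CPM ± 55.9 with 100 (n = 8 each).

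Dnajc5, which encodes the synaptic vesicle chaperone cysteine string protein (chromosome 2, 181520485 to 181555133), had a median of 37.4 CPM and a highest value of 103 CPM in heated wells of 10 nuclei, and 156, 194 and 401 CPM (lowest, median, highest) in heated wells of 100. At room temperature the wells of 10 held 0 to 77.0 CPM and the wells of 100 held 109 to 350 CPM. Dnajc5 rose by 2.97 (SE 0.422, edgeR adjusted p = 8.24e-06). Of the 1755 tested genes Rundc3a and Dnajc5 were the 2 whose 16 wells of 100 all lay above the 16 wells of 10. For 0 genes did all wells of 100 lie below, and both numbers were read off after the values were seen.

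The other large rises were those of Zmiz1, a transcriptional coactivator, Chd4, a chromatin remodelling ATPase, Psme4, a proteasome activator, Sqstm1, an autophagy receptor, Gdi2, a regulator of Rab proteins, Gm10800, Sez6l2, Myo9a, the glycolytic enzyme Gpi1 and Rgs7bp. Their log2 fold changes ran from 2.32 for Rgs7bp to 3.26 for Zmiz1. Myo9a, an unconventional myosin, rose alike in both methods, by 2.42 in heated wells and 2.39 at room temperature (edgeR adjusted p = 0.00991 and 0.00442). Its median went from 26.7 to 228 CPM in heated wells and from 41.8 to 278 CPM at room temperature. Chd4, Gdi2, Gm10800, Sez6l2 and Gpi1 were not called at room temperature alone (adjusted p = 0.179, 0.248, 0.0706, 0.384 and 0.268), and Rgs7bp was not called in heated wells alone (adjusted p = 0.103). Sez6l2, a neuronal membrane protein, was carried by the heated wells: it had 0 counts in the heated pool of 10 and 190 in that of 100, against 50 and 140 at room temperature.

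Malat1 rose by 0.83 on the TMM scale (SE 0.121, edgeR adjusted p = 9.65e-06), by 0.93 in heated wells and 0.66 at room temperature. Of the 12 listed nuclear noncoding RNAs 5 were tested, and Malat1 was the 1 called (higher, beside 9.46% of all tested genes; median of the 5 genes 0.58, against 0.07 over all tested genes). Its median level was 8838 and 15258 CPM in heated wells and 11945 and 23275 CPM at room temperature.

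Cell type markers were read next, since the labels give cortex as the tissue. Of 15 granule neuron markers, genes of the small neurons of cerebellum, 13 were tested, 3 rose and 0 fell (median 0.41 beside 0.07 over all genes), against 9.46% of all tested genes called higher and 11.0% called lower. Of 12 markers of cortical excitatory neurons 3 were tested and 0 changed by edgeR (median 0.03; 2 had an unadjusted p under 0.05). Fezf2 and Tbr1, transcription factors of deep cortical layers, had 0 counts in all 16 wells of 10 nuclei. The granule list took 0.498% and 0.776% of the counts in the heated pools of 10 and 100 and 0.501% and 0.841% at room temperature, while the cortical list took 0.101% and 0.0785%, and 0.0796% and 0.0940%. In the frozen pools the granule list took 0.198% and 0.230% and the cortical list 0.240% and 0.289%. The frozen granule share rested mostly on Kcnd2 (293 and 834 counts) and Rbfox3 (187 and 535 counts), which are expressed in many kinds of neuron, while the more restricted Cbln1 had 0 and 1 counts. In the xylene pools Kcnd2 and Rbfox3 also held a large part of the granule share and of its rise, with levels given below. The label cortex and these shares stand as measured, and their cause was not tested.

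The members of the granule list that rose were Rbfox3, Kcnd2 and Cbln1, of which Rbfox3 and Kcnd2 are general neuronal genes. Rbfox3, the splicing factor known as NeuN (chromosome 11, 118489762 to 118911597), had 169, 250 and 1308 CPM (lowest, median, highest) in heated wells of 10 nuclei and 512, 882 and 1677 in heated wells of 100. At room temperature it had 93.5, 350 and 690 CPM and then 618, 964 and 1196. The ranges overlap in both methods, with 1 heated well of 10 far above the other 7. Rbfox3 rose by 1.21 (SE 0.266, edgeR adjusted p = 0.00125) and by 1.25 in heated wells alone (adjusted p = 0.0320). Kcnd2, the potassium channel Kv4.2, rose by 0.72 (SE 0.189, edgeR adjusted p = 0.00602), from a median of 1297 to 3226 CPM in heated wells and from 2306 to 3765 CPM at room temperature. Fitted alone, the heated wells gave an adjusted p of 0.00341 and the room-temperature wells 0.496. Cbln1, a secreted organizer of granule cell synapses, rose by 0.87 (edgeR adjusted p = 0.0498) and passed in neither method alone (adjusted p = 0.117 in heated wells and 0.411 at room temperature). Gabra6, the GABA-A receptor subunit typical of granule cells, had 0.41 (adjusted p = 0.346).

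Markers of the other cell types are given beside the 20.5% of all tested genes called. Of 11 markers of inhibitory neurons 4 were tested: Erbb4 rose by 0.93 (edgeR adjusted p = 0.0462) and Kit fell by 0.84 (adjusted p = 0.0214). In heated wells alone neither passed, with 0.25 for Erbb4 (adjusted p = 0.730) and -0.41 for Kit (adjusted p = 0.445), while at room temperature they had 1.63 and -1.35 (adjusted p = 0.00997 and 0.0213). Bsg was the 1 tested marker of 11 for endothelial and mural cells, and it fell by 1.01 (adjusted p = 0.0415), with an adjusted p of 0.176 in heated wells alone; Cldn5 and Rgs5 had 0 counts in wells of 10. The calls of Kit and Bsg were lost without a scaling factor (adjusted p = 0.113 and 0.150). Of 7 tested astrocyte, 8 oligodendrocyte, 4 precursor and 2 microglial markers 0 changed, with medians of -0.04, 0.30, 0.28 and -0.01. At an unadjusted p under 0.05 they had 1, 0, 0 and 0. The 10 oligodendrocyte markers in the table took 0.0636% to 1.75% of the counts in single room-temperature wells of 10 nuclei and 0.153% to 0.443% in wells of 100. In heated wells these ranges were 0.143% to 0.421% and 0.178% to 0.625%.

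Genes of the synapse are given beside the 20.5% of all tested genes called, 9.46% higher and 11.0% lower. Of 26 genes of presynaptic release 19 were tested, 3 rose and 1 fell (median 0.19). The calcium sensor Syt1 rose by 0.59 and the vesicle protein Syn1 by 0.68 (edgeR adjusted p = 0.0354 and 0.0488). Syt1 passed at room temperature alone (adjusted p = 0.0496) and not in heated wells (adjusted p = 0.521), and Syn1 passed in neither (adjusted p = 0.632 at room temperature and 0.0542 in heated wells). Erc2, a scaffold of the active zone, fell by 1.63 (SE 0.347, adjusted p = 0.000965), from a median of 1517 to 830 CPM in heated wells and from 1324 to 472 CPM at room temperature. In frozen wells Erc2 had 1487 CPM ± 487 and 1519 CPM ± 417 (n = 8 each).

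Of 31 postsynaptic genes 25 were tested, 3 rose and 1 fell (median 0.30). Shank1, a scaffold of excitatory synapses, rose by 2.26 (SE 0.508, edgeR adjusted p = 0.00167), from a median of 23.8 to 166 CPM in heated wells and from 12.0 to 250.2 CPM at room temperature. It was called in heated wells alone (adjusted p = 0.00904) and not at room temperature (adjusted p = 0.0823). The adhesion molecule Nlgn1 rose by 0.66 (adjusted p = 0.0339) and passed in neither method alone (adjusted p = 0.0564 in heated wells and 0.396 at room temperature). Dlgap1, a scaffold that joins Shank proteins to PSD-95, fell by 0.84 (SE 0.181, adjusted p = 0.00113), from a median of 11040 to 7312 CPM in heated wells and from 12370 to 7198 CPM at room temperature. Of 24 voltage-gated channel genes 17 were tested, 2 rose and 2 fell (median 0.35). The calcium channel Cacna1c rose by 1.31 and Kcnd2 by 0.72, while the calcium-activated potassium channel Kcnma1 fell by 0.99 (edgeR adjusted p = 0.00130 and 0.00298 for Cacna1c and Kcnma1; in heated wells alone 0.0070 and 0.0418). Cacna1c was not called at room temperature alone (adjusted p = 0.107), where 1 well of 10 stands apart with 1477 CPM, and Kcnma1 was not called after thinning (adjusted p = 0.0531).

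The housekeeping lists stand beside the same 20.5% of all tested genes called. Of 16 chaperone genes 4 were tested, and Dnajc5 and Hsp90aa1 rose (median 0.71). Hsp90aa1, the inducible form of HSP90, rose by 1.5 (edgeR adjusted p = 0.0322), and that rise came from the room-temperature wells, with -0.080 in heated wells. Of 29 splicing and RNA-binding genes 18 were tested, 2 rose, Rbfox3 among them, and Hnrnpa2b1 and Ddx5 fell (median 0.42). Of 25 abundant cytoplasmic mRNAs 17 were tested: the glycolytic enzyme Pkm rose by 1.45, the protease inhibitor Cst3 fell by 0.86 and the elongation factor Eef1a1 by 0.92 (edgeR adjusted p = 0.00224, 0.00281 and 0.0342). Hnrnpa2b1, Ddx5, Pkm, Cst3 and Eef1a1 did not pass in heated wells alone (adjusted p = 0.223, 0.0515, 0.320, 0.322 and 0.129). The immediate early genes were too low for the test, with 0 of 13 tested and Fos, Fosb, Junb, Arc and Npas4 at 0 counts in wells of 10.

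Of 11 mitochondrially encoded genes 8 were tested and mt-Nd2, a subunit of complex I, rose by 0.88 (edgeR adjusted p = 0.0210; median of the 8 genes 0.58; in heated wells alone adjusted p = 0.224). Of 79 ribosomal protein genes 22 were tested and 1 rose, while Rpl8 fell by 1.81 and Rps15a fell by 1.22 (median 0.30; edgeR adjusted p = 0.00120 and 0.0235). Of 93 nuclear genes with respiratory chain symbols 27 were tested. Atp5f1, Uqcrq and Atp5b rose by 2.17, 2.07 and 1.05, while Ndufs6 and Uqcrh fell by 1.67 and 1.10 (edgeR adjusted p = 0.00215, 0.00281, 0.00858, 0.0233 and 0.0352; median 0.22). Ndufs6 had 160 and 33 counts in the heated pools of 10 and 100 and 53 and 80 at room temperature, where it was not called (-0.45, adjusted p = 0.759). Fitted on heated wells alone, Rpl8 and Uqcrq passed (adjusted p = 0.00904 and 0.0173; at room temperature alone 0.0494 and 0.0919), and Rps15a, Atp5f1, Atp5b and Uqcrh did not (adjusted p = 0.0631, 0.181, 0.120 and 0.0631). The falls of Ddx5, Eef1a1, Rps15a, Ndufs6 and Uqcrh were not called without a scaling factor (adjusted p = 0.250, 0.127, 0.0775, 0.0702 and 0.125).

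Whether the difference by nuclei number itself differed between heated and room-temperature xylene was tested as an interaction. Of 1755 genes 233 (13.3%) passed, 133 with the larger value in heated wells. The genes named here by their fitted difference had many counts in 1 pool of 10 nuclei and 0 or 1 in the other. Ndufv3, a subunit of complex I, had 100 counts over all 8 heated wells of 10 and 0 at room temperature, against 75 and 106 counts in the pools of 100. Neat1, the noncoding RNA of paraspeckles, had 154 and 0 counts in the pools of 10 and 167 and 88 in those of 100. Ngfrap1 had 0 and 61, Clcn4 0 and 98 and Rab14 0 and 51 in the heated and the room-temperature pool of 10. In the pools of 100 these 3 genes had 162 and 111, 86 and 88, and 142 and 72 counts. Ankrd13a had 212 counts in the heated pool of 10 and 1 at room temperature, and 27 and 18 with 100 nuclei. Fitted folds of genes with 0 counts in a pool depend on the prior count and do not measure a size.

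**Figure D4:**
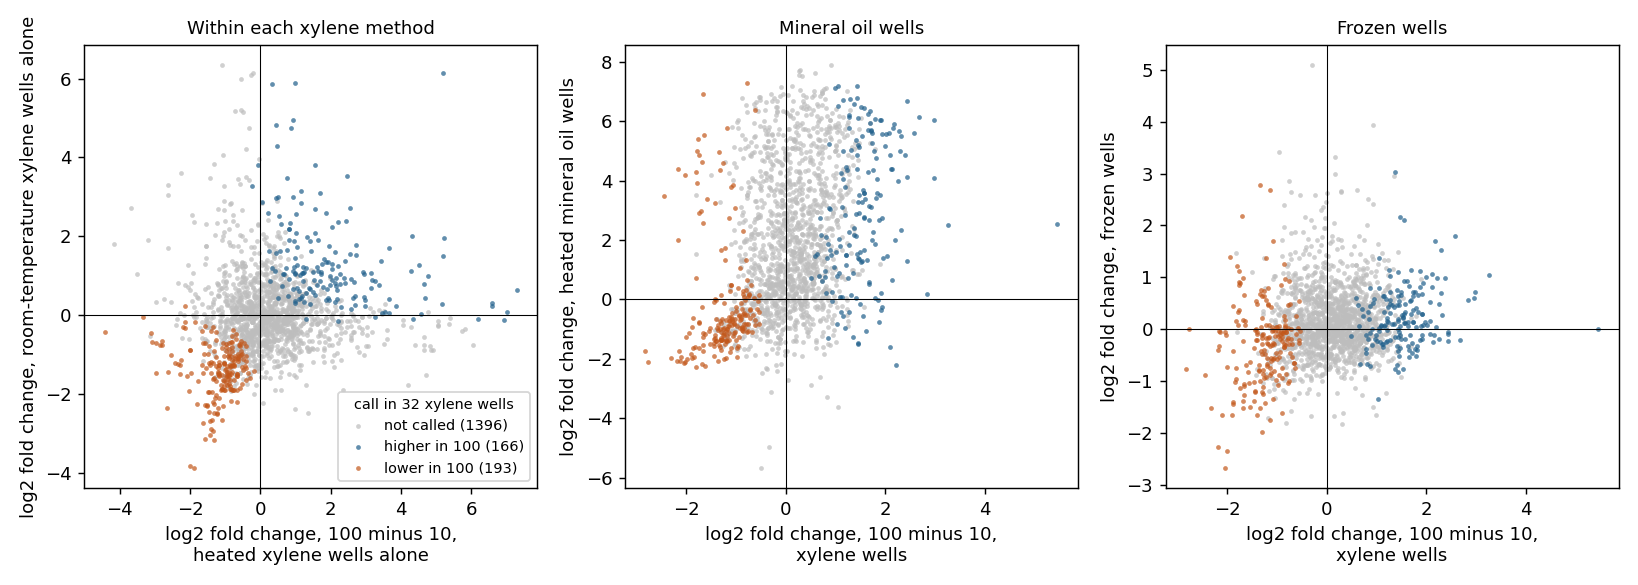
Log2 fold change of 100 against 10 nuclei for 1755 genes. Left, heated against room-temperature xylene wells fitted alone. Middle and right, both xylene methods against the mineral oil wells and the frozen wells. Colours give the call over the 32 xylene wells: 166 higher, 193 lower and 1396 not called. The genes called lower lie mostly below 0 in mineral oil wells, and most genes spread around 0 in frozen wells.

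The mineral oil and frozen wells were not used for these calls and show the same genes in other libraries. In mineral oil wells 96 of the 1755 genes (5.47%) were called lower with 100 nuclei and 752 (42.8%) higher. Of the 193 genes that fell in xylene wells 63 were called lower there and 26 higher. The sign was lower for 142 of them, beside 311 of the 1396 genes not called in xylene wells. Of the 166 that rose 103 were called higher and 1 lower. Ubr4, a ubiquitin ligase, Slc4a3, an anion exchanger, and Eif3l, a subunit of a translation initiation factor, fell in xylene wells and were called higher in mineral oil wells, where they had 0, 1 and 0 counts in the pool of 10 and 16, 134 and 27 in that of 100 (edgeR adjusted p = 0.0474, 0.000120 and 0.00670). The mineral oil pool of 10 nuclei was shallow, with 7512 to 20593 counts per well, and 14 of 16 wells of it and of the heated xylene pool of 10 had their best partner in the well of the same barcode. In frozen wells 4 of the 1755 genes (0.228%) were called higher and 2 (0.114%) lower. Of the 193 genes 1 was called lower there, and 135 had that sign, beside 610 of the 1396 genes not called in xylene wells. Of the 166 genes 0 were called higher in frozen wells and 1 lower, and 58 had the sign lower. The 1 gene of the 193 was Ctsc, which fell by 2.35 (edgeR adjusted p = 0.0107), named after its value was seen.

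The share of counts on the genes that fell was high in fixed and low in frozen wells. The 193 genes took 50.0% of the counts in the mineral oil pool of 10 nuclei and 15.2% in that of 100, against 4.64% and 4.08% in the frozen pools. Tspan3 took 8.86% and 1.58% in the mineral oil pools and 0.0333% and 0.0113% in the frozen pools. The 166 genes that rose took 2.47% and 6.03% in the mineral oil pools and 13.9% and 15.6% in the frozen ones, of which Malat1 alone made up 8.39% and 10.1%.

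**Figure D5:**
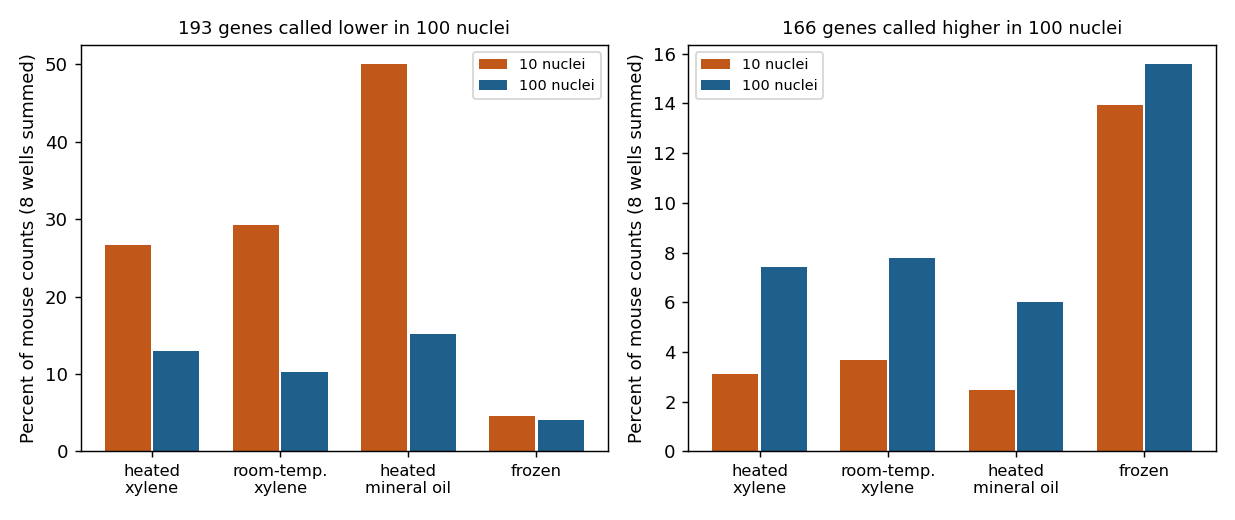
Percent of the mouse counts, 8 wells summed, on the 193 genes called lower (left) and the 166 called higher (right) with 100 xylene nuclei, in the 8 pools of the table. The xylene bars of these genes follow from the choice of the genes. The mineral oil bars go from 50.0% to 15.2% on the left, and the frozen bars are 4.64% and 4.08%.

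The difference between xylene and frozen wells was tested over 2185 genes, of which 123 (5.63%) passed, 65 with the larger value in xylene wells. With the size factors of DESeq2 in the same fit 163 passed, 107 of them larger in xylene. Rundc3a, described above, was among the largest. Snhg20, a noncoding RNA, had 0 counts in both xylene pools of 10 and 37 and 40 in those of 100, against 93 and 217 in the frozen pools. Cacng3, an auxiliary subunit of AMPA receptors, had 1 and 0 counts in the xylene pools of 10 and 61 and 57 in those of 100, against 49 and 125 in frozen pools. Atp1b2 and Gng4 differed the other way: both had 0 counts in the frozen pool of 10, against 144 and 98 for Atp1b2 and 102 and 113 for Gng4 in the xylene pools of 10. Coa3 had 40 and 75 counts in the xylene pools of 10, 0 and 64 in those of 100 and 16 and 67 in frozen wells.

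Gene structure was compared with the GENCODE annotation of GRCm38, which matched 1710 of the 1755 genes. The median genomic length was 100701 bases for genes that rose, 76565 for genes that fell and 104021 over all tested genes. The median of the longest A run in the longest transcript was 9, 7 and 7 bases. The median GC content was 47.8%, 46.5% and 47.7%. Of the 428 shortest genes by genomic length 10.3% rose and 13.3% fell, and of the 428 longest 8.88% and 8.64%. These are descriptions of the called genes and were not tested.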

How the data were processed

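The deposited SCRB-seq table holds raw counts of 10653 human and 19006 mouse genes in 64 wells, counted on a combined reference, per the file headers. The submitters' processing notes name the builds hg19 and mm10. No label or file header names the aligner, the counting tool or any collapsing of molecular identifiers (not given in the sources used here). Wells were grouped by the treatment and nuclei number of the deposited annotation. Members and gene lists were chosen with earlier results of these data known. Only mouse genes were tested: edgeR 4.0.16 (R 4.3.3; TMM, filterByExpr, quasi-likelihood test, method as a block, Benjamini-Hochberg adjustment over all tested genes), with DESeq2 1.42.0 as an alternative. Measures per well were tested by exact permutation within method (12870 label sets each) in Python 3.11.15 and adjusted over 8 measures. Thinning drew 20000 counts without replacement. The scripts were tested on simulated counts. Named genes were the 12 largest rises and falls called, up to 4 called members of each list and direction, Malat1, the 5 genes with most counts, and the 3 largest of each direction in the interactions. Some genes that this rule names are not reported here. Coordinates are from GENCODE M21 on GRCm38 (mm10). Alternatives covered scaling, filter, tool, thinning, pools, methods and left-out wells. Counting intervals cover counting error only.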

Additional observations from a re-analysis of the deposited data

Results flagged for a closer look

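Of 100 groups of 8 wells checked (8 measures per well and 17 genes), 8 had a well far from the other 7. The rule used gives about 1 in 20 groups by chance for normally distributed values only. CPM of single genes were often skewed in wells of 10 nuclei, so the 8 groups cannot be weighed against that rate. Each of the 8 groups was a pool of 10 nuclei. In heated wells of 10 nuclei they were Nebl in well 8 (14467 CPM), Sft2d2 in well 4 (21235 CPM), Rbfox3 in well 1 (1308 CPM) and Myo9a in well 3 (188 CPM). In room-temperature wells of 10 they were Dnajc5 in well 2 (77.0 CPM), and Sez6l2 (391 CPM), Cacna1c (1477 CPM) and the share of ribosomal protein genes (1.36%) in well 1.

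By permutation of the method labels, with the limit given above, the difference by nuclei number differed between heated and room-temperature xylene for 2 measures per well. They were genes at 20000 counts (-882 genes) and the share of ribosomal protein genes (-0.360 percentage points). By the same kind of test, the difference by nuclei number differed between xylene and frozen wells for genes at 20000 counts (805 genes) and the share of the 10 most abundant genes (-8.69 percentage points).

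Among the named genes, heated minus room-temperature log2 differences passed the edgeR test at 7.09 for Ngfrap1, 6.95 for Rab14, 6.82 for Clcn4, 6.67 for Sez6l2, 3.73 for Chd4, 3.28 for Zmiz1, 3.23 for Gdi2, 3.17 for Gpi1 and 1.11 for Cst3. Negative differences passed at -7.41 for Ndufv3, -6.48 for Neat1, -6.33 for Ankrd13a, -4.82 for Atp5f1, -3.99 for Borcs7, -3.88 for Hsp90aa1, -2.77 for Ndufs6 and -1.97 for Pkm. Values of genes with 0 counts in a pool depend on the prior count.

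Xylene minus frozen log2 differences passed at 5.57 for Rundc3a, 5.0 for Snhg20, 4.95 for Cacng3, 4.04 for Sez6l2, 3.65 for Rab14, 2.94 for Ngfrap1, 2.56 for Chd4, 2.52 for Psme4, 2.50 for Myo9a, 2.40 for Shank1, 2.29 for Dnajc5, 1.97 for Rgs7bp and 1.23 for Syn1. They passed at -5.49 for Atp1b2, -4.41 for Gng4, -4.29 for Coa3, -2.21 for Cst3, -2.20 for Nebl, -1.82 for Erc2 and -1.01 for Dlgap1.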

How the results depend on the processing

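Genes per well, the Malat1 share, the human share and the 2 interaction counts kept their direction and side of the threshold under each alternative run. In room-temperature wells alone the difference in mouse counts was 23903 (exact permutation p = 0.136). The mitochondrial rise was 0.131 percentage points in heated wells alone (exact permutation p = 0.116). The ribosomal protein share reversed to -0.0825 in heated wells and rose by 0.278 at room temperature (exact permutation p = 0.0371). The 359 changed genes (166 higher, 193 lower) became 3514 of 17764 tested (2929 and 585) without a filter, 101 of 361 tested (42 and 59) after thinning, and 0 (0 and 0) with pools summed, where Malat1 also lost its call (adjusted p = 0.302). DESeq2 called 266 higher and 233 lower, a term for the well barcode 270 higher, no scaling factor 344 higher and 98 lower, and room-temperature wells alone 121 lower. The barcode term, the total-count scaling and leaving out room-temperature wells 3 and 8 were chosen after seeing the data. Named genes reversed in 1 method alone: in heated wells Hsp90aa1 (-0.080), Ndufv3 (-1.10) and Neat1 (-0.56), and at room temperature Ngfrap1 (-0.13), Clcn4 (-0.75) and Ankrd13a (2.71). The cause was not tested. The labels name no pairing of wells across nuclei numbers, but the same well barcodes recur in each pool. With the well barcode as a block 497 genes were called (270 higher, 227 lower). With 2 pools against 2, calls rest on the spread between wells of a pool.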
